A study of Mus musculus with 2 samples.

Results

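Cadherins are adhesion proteins that hold neighbouring cells together, and 4 of them, Cdh2, Cdh5, Cdh11 and Cdh13, are described here across the cells of the mouse aorta. They were chosen by symbol, with earlier results of the same data known, and are 4 of the 32285 genes in the count matrices (Cdh2 is ENSMUSG00000024304, Cdh5 ENSMUSG00000031871, Cdh11 ENSMUSG00000031673 and Cdh13 ENSMUSG00000031841). The 2 droplet libraries compared, 1 per genotype, came from knock-in mice, whose Mgp gene encodes a mutant of matrix Gla protein (MGP), and from wild-type mice. All mice were 1 month old and of both sexes, and the study's title places its question in BMP-regulated differentiation of cells of the aortic media. The adventitia was dissected away, the vessels were digested, and dead cells were sorted out before 10x Genomics capture, per the labels' protocols. The sources used here give neither the mutated residue nor the number of mice pooled.

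Classical cadherins bind a cadherin of the same kind on the next cell through calcium-dependent outer domains, and their cytoplasmic tails bind beta- and p120-catenin, which link the junction to actin. Cdh5 (VE-cadherin) is the cadherin of endothelial adherens junctions. Cdh2 (N-cadherin) joins smooth muscle cells, fibroblasts and neural cells, and Cdh11 (OB-cadherin) is a cadherin of osteoblasts and other mesenchymal cells. Cdh13 (T-cadherin) has no cytoplasmic tail: it is held in the membrane by a lipid anchor, is found on vascular muscle and endothelium, and binds adiponectin and low-density lipoprotein. MGP is secreted, holds back calcification and can bind bone morphogenetic proteins (BMPs).

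After filtering, 6089 knock-in cells remained, at a median depth of 11650 UMIs, and 3588 wild-type cells, at 20395.5 UMIs. A UMI (unique molecular identifier) marks 1 captured RNA molecule. Median mitochondrial shares were 3.07% in knock-in and 1.87% in wild-type cells, and 4 barcodes occurred in both libraries. Sex was called per cell, as female from UMIs of Xist alone and as male from UMIs of Y-linked genes alone. Female cells made up 46.0% and male cells 33.5% of the knock-in library, against 32.6% and 56.7% of the wild-type library. The other 20.5% of knock-in and 10.7% of wild-type cells had both or neither, and are left out of values by sex. The classes were 2591 knock-in and 295 wild-type smooth muscle cell (SMC)-like cells, 2911 and 2695 fibroblast-like cells, 46 and 64 endothelial-like cells, and 276 and 315 macrophage or monocyte-like cells. The 10 SMC markers were all detected in SMC-like cells of both libraries, as were the 10 fibroblast and 10 endothelial markers in their own classes. Of the 11 macrophage or monocyte markers, Ly6c2 was at 0 in that class in both libraries. The classes were named from these lists, so their detection is no separate check. Fewer cells of a type and a lower count per cell were kept apart by giving levels within a class, as CPM, a gene's UMIs per 1e+06 UMIs counted in that class. With 1 library per genotype there is no replicate and no test of genotype: the 95% intervals on levels, shares and log2 ratios (knock-in over wild-type) cover counting error only, and mouse, dissection, digestion and genotype cannot be told apart.

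Each cadherin had its own place among the cells. Endothelial-like cells held 90.6% of the Cdh5 UMIs in the knock-in library and 97.1% in the wild-type library, although they were 0.755% and 1.78% of the cells. Fibroblast-like cells held 86.5% of the Cdh11 UMIs in the knock-in and 90.02% in the wild-type library. Cdh13 was detected in all 3 vascular classes, and Cdh2 was sparse in SMC-like and fibroblast-like cells and not detected in endothelial-like ones. The main source of Cdh13 differed between the libraries, along with their cell make-up: SMC-like cells held 75.1% of its UMIs in the knock-in and 37.5% in the wild-type library, and fibroblast-like cells 19.7% and 45.1%. Over all kept cells Cdh13 stood at 250.1 CPM in the knock-in and 74.4 CPM in the wild-type library, and Cdh11 at 55.8 and 118 CPM, values that mix the level in a cell with the number of cells of each class.

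**Figure D1:**
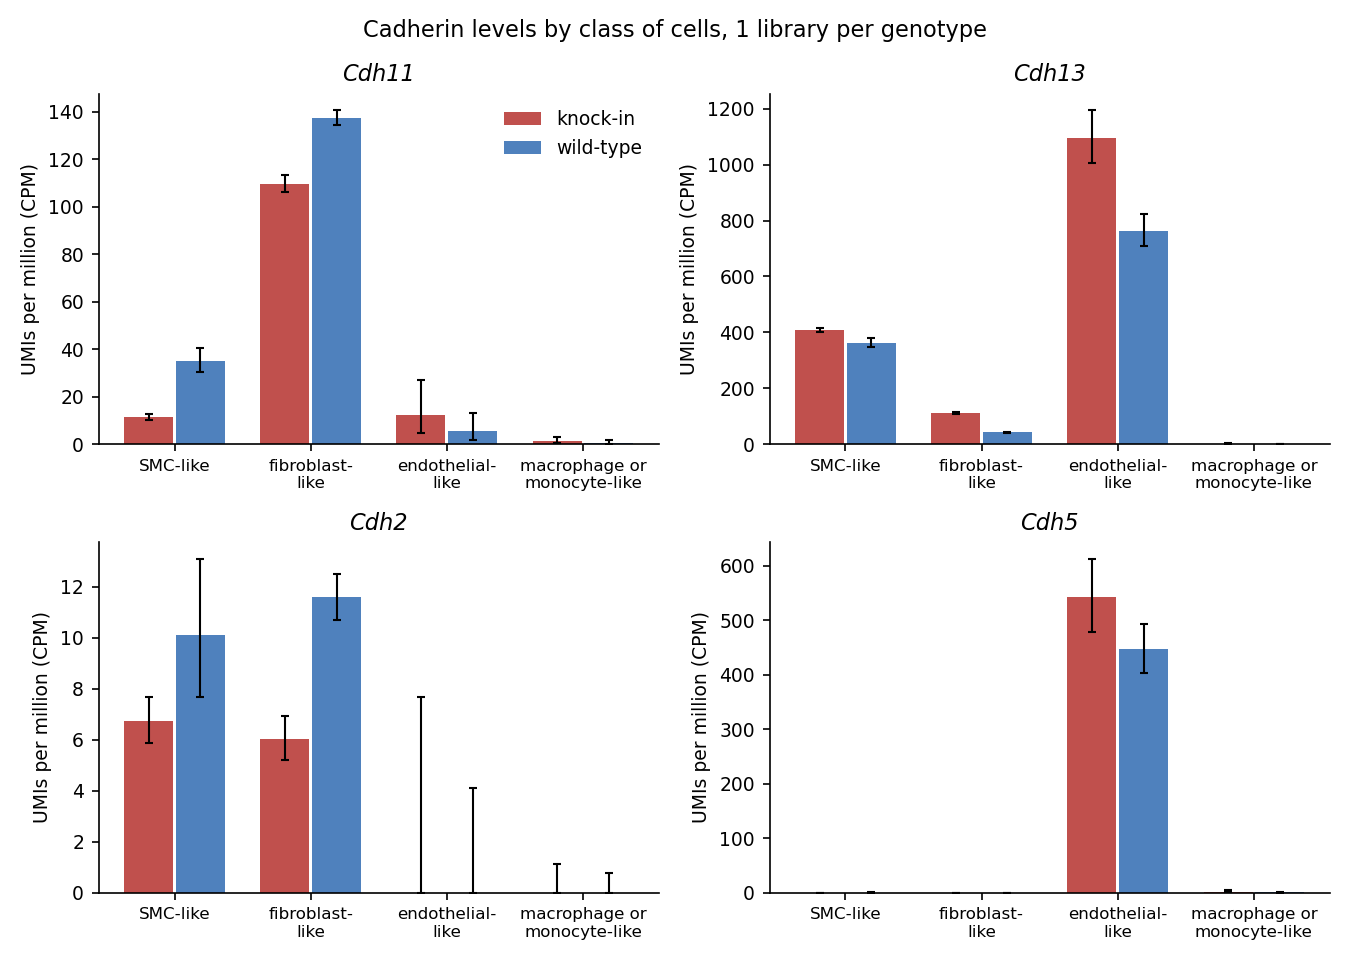
Levels of the 4 cadherins (CPM, from 0) in 4 classes of cells; red bars are the knock-in and blue bars the wild-type library, and error bars are exact Poisson 95% intervals. Cdh5 stands at 543 CPM in knock-in and 447 CPM in wild-type endothelial-like cells and near 0 elsewhere, Cdh11 is highest in fibroblast-like cells, and Cdh13 is present in SMC-like, fibroblast-like and endothelial-like cells.

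Free RNA in the droplets was a small part of these levels. In barcodes under 100 UMIs, taken as droplets without a cell, Cdh11 stood at 42.4 CPM in the knock-in and 58.4 CPM in the wild-type library, and Cdh13 at 174 and 54.5 CPM. From the C1q genes of macrophages, free RNA was expected to add 0.294 CPM of Cdh11 to knock-in and 0.351 CPM to wild-type SMC-like cells. Both amounts lie far below the measured levels, which follow. Macrophage or monocyte-like cells gave the background share of cells with a UMI: 1.45% of knock-in and 0.952% of wild-type cells for Cdh11, and 2.90% and 1.27% for Cdh13, at median depths of 11283.5 and 14901 UMIs. Their Cdh2 was 0 in both libraries, where 3 counts would have been 0.902 CPM in the knock-in and 0.632 CPM in the wild-type library.

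Cdh11 was lower in the knock-in library in both mesenchymal classes, with the larger difference over the whole class in SMC-like cells. SMC-like cells held 387 Cdh11 UMIs in the knock-in library, a level of 11.4 CPM (10.3 to 12.6), and 198 UMIs in the wild-type library, a level of 35.1 CPM (30.4 to 40.4). The log2 ratio was -1.63 (-1.88 to -1.37), and the intervals of the levels do not overlap. A Cdh11 UMI was found in 10.5% of 2591 knock-in and 26.4% of 295 wild-type SMC-like cells, at median depths of 12202 and 17651 UMIs. With every cell thinned to 5000 UMIs the shares were 4.64% and 11.3%, so the wild-type share was higher at equal depth too. Fibroblast-like cells held 109.7 CPM (106 to 113) in the knock-in and 138 CPM (135 to 141) in the wild-type library. Their log2 ratio was -0.33 (-0.38 to -0.27), a smaller difference over the class than in SMC-like cells. That class value mixes subclusters of unlike ratios, given below.

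The difference in SMC-like cells was present in both of their clusters. In the larger cluster, led by Tafa1, Wnt16 and Mylk4 (2350 knock-in and 245 wild-type cells), Cdh11 stood at 11.4 CPM in knock-in and 34.5 CPM in wild-type cells, a log2 ratio of -1.59. In the smaller one, led by Nrip2, Pln and Sncg (241 and 50 cells), it stood at 11.02 and 38.3 CPM, a ratio of -1.80 (-2.51 to -1.09). In both libraries Cdh11 was detected in a minority of SMC-like cells. The 10% of these cells with most Cdh11 UMIs held 96.6% of them in the knock-in and 72.7% in the wild-type library. With so few UMIs per cell these shares depend on count and depth, and do not show how many cells transcribe the gene. The highest cell held 8 UMIs in the knock-in and 15 in the wild-type library. Fibroblast marker RNA moved with this result, at a summed 5228 CPM in knock-in and 8120 CPM in wild-type SMC-like cells, with 8 of the 10 fibroblast markers lower in the knock-in library and no marker at 0. Among SMC-like cells at or below the wild-type median share of these markers, 2149 knock-in and 148 wild-type cells, the ratio was -1.59 (-1.94 to -1.22), from 85 wild-type UMIs. The part of fibroblast RNA in the Cdh11 difference was not tested. The size of the Cdh11 ratio depended on which wild-type cells entered the class. It was -1.17 without doublet removal, -1.26 at resolution 1.0 and -1.21 with the 4 cadherins and Mgp among the variable genes, where the wild-type class held 146, 130 and 140 Cdh11 UMIs. With a minimum of 2000 UMIs per cell it was -2.25, but the wild-type class then took in the 8 mesothelial-like cells, which are rich in Cdh11, and without them it was -1.21 (-1.49 to -0.91).

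Among fibroblast-like cells Cdh11 was lower in the knock-in library in all 3 clusters. The cluster led by Pex5l, Cntn6 and Fmod had the highest level, 135 CPM in 1493 knock-in and 162 CPM in 1380 wild-type cells, a log2 ratio of -0.27 (-0.34 to -0.20). The cluster led by Meox2, C2 and Acp5, whose knock-in cells were shallow with a median of 4279 UMIs against 12994.5 in wild-type cells, stood at 78.9 CPM in knock-in and 132 CPM in wild-type cells, a ratio of -0.74. The cluster led by Wnt2, Aldh1a3 and Tmem100 stood at 72.6 and 96.3 CPM, a ratio of -0.41. Clustered more finely, the class fell into 14 subclusters, of which 12 had at least 20 cells in each library. In 9 of these 12 the interval of the Cdh11 ratio lay below 0, in 2 it held 0, and in 1 it lay above 0. The exception was led by Akr1c18, Bmp6 and Dpp4, with 83.0 CPM in 55 knock-in and 41.3 CPM in 128 wild-type cells, a ratio of 1.01 (0.63 to 1.39). Cdh11 was most abundant in a subcluster led by Csmd1, Mdga2 and Klf5, at 253 CPM in knock-in and 445 CPM in wild-type cells, followed by one led by Phex and Rapgef5, at 194 and 314 CPM. The Csmd1 subcluster had 176 knock-in and 33 wild-type cells and a ratio of -0.82. The Phex subcluster had 263 and 63 cells and a ratio of -0.70. The Cdh11 ratio of the fibroblast-like class thus mixes levels within subclusters with their shares. The largest difference among the 12 was in a subcluster led by Dkk2 and Penk, with 35.2 CPM in 76 knock-in and 118 CPM in 341 wild-type cells, a ratio of -1.75.

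Outside these classes, an unnamed cluster led by Grem1, Tfap2b and Chrm2, which carries both fibroblast and SMC markers, had 62.6 CPM of Cdh11 in 189 knock-in and 135 CPM in 57 wild-type cells, a log2 ratio of -1.10. A single wild-type cell held 57 of the 125 wild-type UMIs, and without the highest cell of each library the levels were 54.7 and 76.3 CPM, a ratio of -0.48 (-0.92 to -0.03). Its SMC markers summed to 9431 CPM in knock-in and 5632 CPM in wild-type cells, with all 10 higher in the knock-in library, and their part in the Cdh11 value was not tested. Endothelial-like cells held 6 Cdh11 UMIs in the knock-in library, from 2 cells, and 5 in the wild-type library, from 3 cells. No knock-in cell was mesothelial-like, and all 8 wild-type mesothelial-like cells carried at least 1 Cdh11 UMI.

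**Figure D2:**
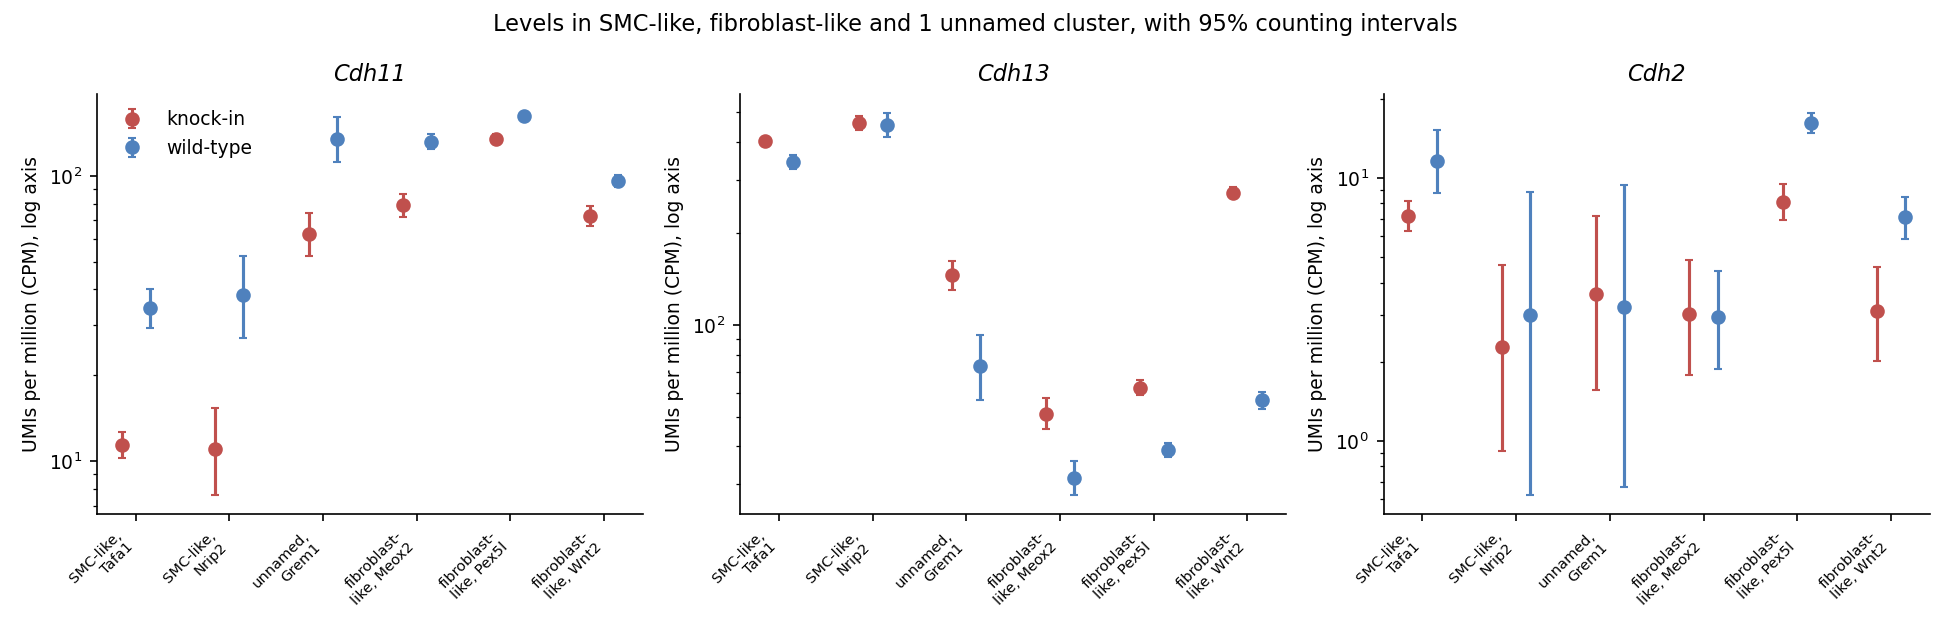
Levels of Cdh11, Cdh13 and Cdh2 (CPM, log axes) in 2 SMC-like, 1 unnamed and 3 fibroblast-like clusters, each named by a leading gene; red points are the knock-in and blue points the wild-type library, with exact Poisson 95% intervals. Cdh11 lies lower in the knock-in library in all 6 clusters, while Cdh13 lies higher in 5 and is level in the SMC-like cluster led by Nrip2, with the widest gap in the cluster led by Wnt2.

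Cdh13 was higher in knock-in fibroblast-like cells and close to level in SMC-like cells. In fibroblast-like cells it stood at 112 CPM (108 to 116) in the knock-in and 43.3 CPM (41.6 to 45.04) in the wild-type library, a log2 ratio of 1.37 (1.298 to 1.446). A UMI was found in 30.02% of knock-in and 28.7% of wild-type fibroblast-like cells, at median depths of 10858 and 21515 UMIs. With cells thinned to 5000 UMIs it was found in 23.8% of 2252 knock-in and 13.3% of 2555 wild-type cells, so the shares parted at equal depth. Thinning left out 659 shallower knock-in and 140 wild-type cells, of which 547 and 124 were of the cluster led by Meox2. The thinned cells are thus another mix than the whole class. SMC markers summed to 699 CPM in knock-in and 397 CPM in wild-type fibroblast-like cells, with 10 of 10 higher and no marker at 0. In SMC-like cells, where most cells carry it, it stood at 409 CPM (403 to 416) in the knock-in and 363 CPM (348 to 379) in the wild-type library, a ratio of 0.17 (0.10 to 0.24). A Cdh13 UMI was found in 93.4% of knock-in and 91.5% of wild-type SMC-like cells, with medians of 4 and 5 UMIs per cell. The small SMC-like difference was not stable: among SMC-like cells at or below the wild-type median share of fibroblast markers the ratio was -0.02 (-0.11 to 0.07). It was 0.02 (-0.13 to 0.18) in the cluster led by Nrip2, where the levels were 461 and 455 CPM.

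The fibroblast-like difference was largest in the cluster led by Wnt2, Aldh1a3 and Tmem100. There Cdh13 stood at 272 CPM in 437 knock-in cells and 56.5 CPM in 727 wild-type cells, a log2 ratio of 2.27 (2.16 to 2.38). A UMI was found in 59.0% of knock-in and 29.7% of wild-type cells of this cluster, and in 45.1% and 14.2% with cells thinned to 5000 UMIs. The other clusters differed less. The cluster led by Pex5l stood at 62.3 CPM in knock-in and 38.8 CPM in wild-type cells, a ratio of 0.68 (0.56 to 0.80), and the cluster led by Meox2 at 51.2 and 31.5 CPM, a ratio of 0.70 (0.45 to 0.95). SMC markers, from a class rich in Cdh13, summed to 1173 CPM in knock-in and 125 CPM in wild-type cells of the Meox2 cluster, with 10 of 10 higher, and to 655 and 627 CPM in the Pex5l cluster, with 8 of 10 higher, and their part in these values was not tested. Without the Wnt2 cluster the fibroblast-like ratio was 0.68. SMC marker RNA moved with Cdh13 in the Wnt2 cluster, at a summed 472 CPM in knock-in and 105 CPM in wild-type cells, with 9 of the 10 markers higher in the knock-in library and no marker at 0. Among its cells at or below the wild-type median share of SMC markers the ratio was 1.95 (1.74 to 2.15). Other clusterings cut these cells differently, and the clusters nearest to this one gave ratios from 1.37, in a larger cluster formed without doublet removal, to 3.48, with the libraries clustered separately. The value of 3.48 set a knock-in cluster led by Wnt2, Gap43 and Cadm3 against a wild-type cluster led by Penk, Dkk2 and Bmper. These cells may not be alike. By sex the ratio in this cluster was 2.91 in male and 1.58 in female cells, and in the whole fibroblast-like class 1.97 and 0.80. The difference between sexes was not tested, since each sex of a genotype is part of 1 library.

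Within the finer subclusters the Cdh13 difference was uneven. Of the 12 with at least 20 cells in each library, 6 had an interval above 0, 6 had one that held 0, and 0 had one below 0. One of the 6 above 0, led by Inmt, rests on 248 knock-in UMIs and 1 wild-type UMI. The highest level was in a subcluster led by Lgals3, Fn1 and Sfrp4, with 325 CPM in 224 knock-in and 154 CPM in 78 wild-type cells, a log2 ratio of 1.08. The subcluster led by Akr1c18, Bmp6 and Dpp4 stood at 286 CPM in 55 knock-in and 35.8 CPM in 128 wild-type cells, a ratio of 2.999 (2.69 to 3.31), and was the one where Cdh11 was also higher. These levels rest on few cells: 18 of the 55 knock-in cells carried the 365 Cdh13 UMIs, and 5 of them held 252. Without the highest cell of each library the ratio was 2.90, but a like cluster led by Krtdap and Akr1c18 at resolution 1.0 for all cells, with 46 knock-in and 121 wild-type cells, held 42 and 47 Cdh13 UMIs and gave 1.49. In the subcluster itself a Cdh11 UMI was found in 41.8% of knock-in and 51.6% of wild-type cells, although the summed Cdh11 level was higher in the knock-in library. A subcluster led by Saa3 and Serpine2 stood at 269.6 and 159 CPM, a ratio of 0.76. The subclusters with most Cdh11, led by Csmd1 and by Phex, showed no Cdh13 difference beyond counting error, with ratios of -0.03 (-0.40 to 0.35) and -0.27 (-0.58 to 0.06). The libraries filled the subclusters unevenly, with 224 knock-in and 78 wild-type cells in the Lgals3 one and 76 and 341 in the Dkk2 one, where Cdh13 was 39.8 and 21.7 CPM. The Cdh13 ratios of the fibroblast-like class and of the Wnt2 cluster thus mix levels within subclusters with their shares. The class ratio of 1.37 lay above that of most of the 12 subclusters.

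**Figure D3:**
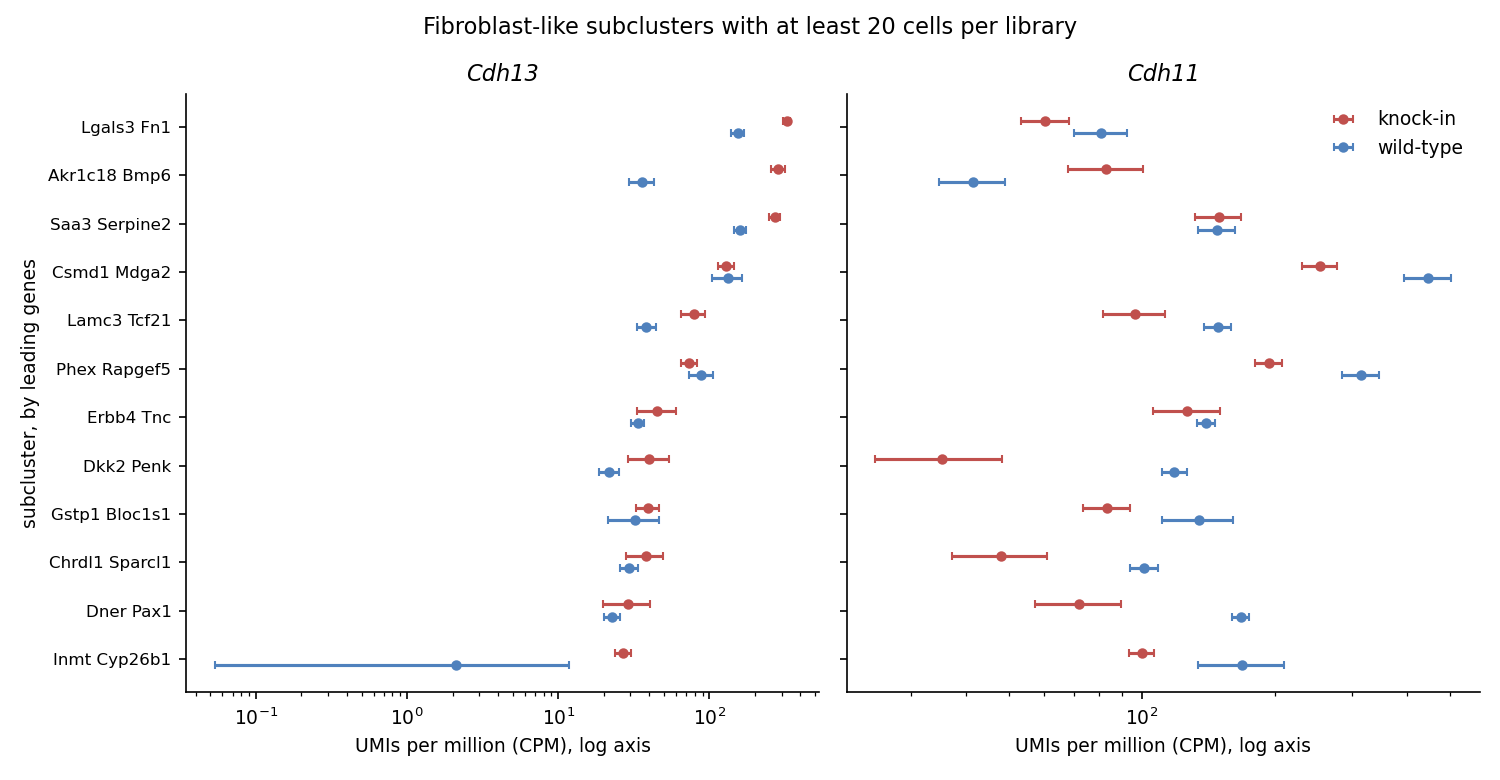
Levels of Cdh13 (left) and Cdh11 (right) in CPM on log axes in 12 fibroblast-like subclusters with at least 20 cells per library, ordered by the knock-in Cdh13 level; red points are the knock-in and blue points the wild-type library, with exact Poisson 95% intervals. Cdh13 is far apart between the libraries in the Akr1c18 subcluster (286 against 35.8 CPM) and level in the Csmd1 subcluster, and Cdh11 is lower in the knock-in library in most rows. The wild-type Cdh13 point of the Inmt subcluster rests on 1 UMI.

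Cdh11 and Cdh13 were found both in the same and in different fibroblast-like cells. At 5000 UMIs per cell, 209 of 2252 knock-in cells carried both, 551 carried Cdh11 without Cdh13 and 327 carried Cdh13 without Cdh11. In the wild-type library 168 of 2555 cells carried both, 936 carried Cdh11 without Cdh13 and 171 carried Cdh13 without Cdh11. In SMC-like cells Cdh13 without Cdh11 was the common state, in 1935 of 2562 knock-in and 187 of 291 wild-type cells. A cell without a UMI at this depth may still transcribe the gene.

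Cdh2 was sparse everywhere. Fibroblast-like cells held 196 Cdh2 UMIs in the knock-in library, 6.02 CPM (5.21 to 6.92), and 658 in the wild-type library, 11.6 CPM (10.7 to 12.5), a log2 ratio of -0.94 (-1.18 to -0.71). The cluster led by Pex5l had 8.13 CPM in knock-in and 16.2 CPM in wild-type cells, a ratio of -0.999, and the Wnt2 cluster 3.12 and 7.07 CPM, a ratio of -1.18. In the Meox2 cluster, with 17 and 23 UMIs, the ratio was 0.04 (-0.95 to 1.01). In 10 of the 12 finer subclusters the interval held 0, and in the other 2 it lay below 0. The highest wild-type level, 22.0 CPM, was in a subcluster led by Erbb4 and Tnc with 69 knock-in and 516 wild-type cells, where the knock-in level was 16.3 CPM. It held 17 knock-in and 273 wild-type Cdh2 UMIs, a ratio of -0.43 (-1.23 to 0.28). The subcluster led by Inmt, at 4.55 CPM in the knock-in library, had 733 knock-in and 26 wild-type cells. The ratios of the class and of the Pex5l cluster thus mix levels within subclusters with their shares.

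In SMC-like cells Cdh2 gave no stable difference. It had 229 UMIs in the knock-in and 57 in the wild-type library, levels of 6.73 CPM (5.89 to 7.66) and 10.1 CPM (7.66 to 13.1), and a log2 ratio of -0.59 (-1.01 to -0.14). The ratio was 0.02 (-0.68 to 0.81) among cells of 8000 to 20000 UMIs and 0.14 (-0.80 to 1.24) after thinning to 5000 UMIs, so its direction turned where depth was matched. It also turned, to 0.10 (-0.58 to 0.84), among cells in which a posterior Hox gene, a mark of position along the aorta, was detected. In the cycling-led unnamed cluster Cdh2 stood at 30.5 CPM in 28 knock-in and 24.9 CPM in 111 wild-type cells, with intervals that overlap. Endothelial-like cells held 0 Cdh2 UMIs in both libraries, where 3 counts would have been 6.24 CPM in the knock-in and 3.35 CPM in the wild-type library, so in the knock-in library a level like that of SMC-like cells was close to the limit of what could be detected.

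Endothelial-like cells carried both Cdh5 and Cdh13. Cdh13 was somewhat higher in the knock-in library, and Cdh5 slightly so, within counting error at matched depth. Cdh5 had 261 UMIs and 543 CPM (479 to 613) in 46 knock-in cells, and 400 UMIs and 447 CPM (404 to 493) in 64 wild-type cells, a log2 ratio of 0.28 (0.05 to 0.51), and the intervals of the levels overlap. The Cdh5 ratio was 0.08 (-0.28 to 0.44) after thinning to 5000 UMIs and 0.28 (-0.025 to 0.57) among cells of 8000 to 20000 UMIs. It was 0.11 (-0.10 to 0.32) without doublet removal, and each of these intervals holds 0. Cdh5 was found in 93.5% of knock-in and 98.4% of wild-type endothelial-like cells, and in 36 of 40 and 50 of 61 cells after thinning. Cdh13 stood at 1097 CPM (1005 to 1194) in the knock-in and 764 CPM (708 to 824) in the wild-type library, a ratio of 0.52 (0.35 to 0.69). Of the thinned cells, 35 of 40 knock-in and 45 of 61 wild-type cells carried both genes. The Cdh13 ratio was 0.18 (-0.07 to 0.43) in female cells and 0.65 in male cells, from at most 28 cells per sex and library.

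The endothelial-like cells of the libraries were not alike in other respects. Lymphatic markers summed to 49.9 CPM in the knock-in and 932 CPM in the wild-type library, with 6 of 6 lower in the knock-in library and Mmrn1 and Ccl21a at 0 there. Fibroblast markers summed to 4651 and 1804 CPM, with 9 of 10 higher in the knock-in library. Cells with no UMI of Prox1, Mmrn1 or Flt4, genes of lymphatic endothelium, numbered 34 and 49, and in them Cdh5 stood at 498 CPM in knock-in and 460 CPM in wild-type cells and Cdh13 at 1008 and 832 CPM. In the 12 and 15 cells with such a UMI, Cdh5 stood at 633 and 410 CPM and Cdh13 at 1273 and 570 CPM. The knock-in cells had Prox1 or Flt4 UMIs only, since Mmrn1 was at 0 there. The sets may thus not be of like cells. The part of these markers in the differences was not tested further.

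Outside endothelial-like cells Cdh5 was rare. A UMI was found in 13 of 6043 other knock-in cells and 12 of 3524 other wild-type cells. In the knock-in library 14 of those 27 UMIs came from 2 cells of the cycling-led cluster that also carried at least 10 UMIs of endothelial markers. SMC-like cells had 1 Cdh5 UMI in the knock-in and 0 in the wild-type library, where 3 counts would have been 0.532 CPM, and fibroblast-like cells had 5 and 8 UMIs.

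Set against all genes, the differences of the 4 cadherins can be placed as follows, with nothing read from the counts since the cadherins were chosen with these ratios known. Of genes with at least 50 UMIs over both libraries in SMC-like cells, 8.26% were at least 1.5-fold higher and 6.95% at least 1.5-fold lower in the knock-in library. Of the 3 cadherins measured there, 0 were higher and 2, Cdh11 and Cdh2, were lower by that margin, with Cdh2 just past it. In fibroblast-like cells the shares were 7.44% higher and 7.5% lower, and of 3 cadherins 1, Cdh13, was higher and 1, Cdh2, was lower. In endothelial-like cells the shares were 7.68% higher and 12.0% lower, and 0 of the 2 cadherins measured passed in either direction. Median log2 ratios over all genes were -0.04, -0.07 and -0.05 in the 3 classes.

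Other classical cadherins in SMC-like cells followed different courses. Of 15 listed genes, 4 had 50 UMIs or more, and 3 of them were at least 1.5-fold lower in the knock-in library, with a median log2 ratio of -0.89. Of all genes in SMC-like cells, 6.95% were lower by that margin. Cdh18 stood at 30.2 CPM in knock-in and 71.2 CPM in wild-type cells, a ratio of -1.24 (-1.41 to -1.07). Cdh3 (P-cadherin) stood at 5.88 and 11.5 CPM, and Cdh4 (R-cadherin) at 4.14 and 7.28 CPM. Cdh6 (K-cadherin), with 98.3 CPM in knock-in and 104 CPM in wild-type cells, had a ratio of -0.08 (-0.21 to 0.05). The summed fibroblast markers given beside Cdh11 apply to these cells too, and their part in these values was not tested. In fibroblast-like cells 0 of 4 measured classical cadherins passed 1.5-fold, against 7.44% of all genes higher and 7.5% lower. Cdh18 stood there at 53.0 CPM in knock-in and 53.6 CPM in wild-type cells and Cdh12 at 23.8 and 17.8 CPM.

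Protocadherins and the large cadherins lack the catenin-binding tail of classical cadherins. Pcdh7 stood at 2687 CPM in knock-in and 2815 CPM in wild-type SMC-like cells, a log2 ratio of -0.07, and at 419.7 and 497 CPM in fibroblast-like cells. In SMC-like cells 1 of 12 measured genes passed 1.5-fold, Pcdh17, with 64 and 6 UMIs and an interval that holds 0. Of all genes there, 8.26% were higher and 6.95% lower by that margin. Clstn1, a calsyntenin, stood at 123 CPM in knock-in and 85.9 CPM in wild-type SMC-like cells, a ratio of 0.52. In fibroblast-like cells 2 of 14 were higher and 1 lower by 1.5-fold, against 7.44% of all genes higher and 7.5% lower. The lower one, Pcdh9, stood at 89.3 CPM in knock-in and 239.6 CPM in wild-type cells, a ratio of -1.42 (-1.48 to -1.37), and the higher ones, Pcdh1 and Pcdh17, stood below 2 CPM in both libraries. In endothelial-like cells Clstn1 stood at 343 and 114 CPM, a ratio of 1.59 (1.23 to 1.96).

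**Figure D4:**
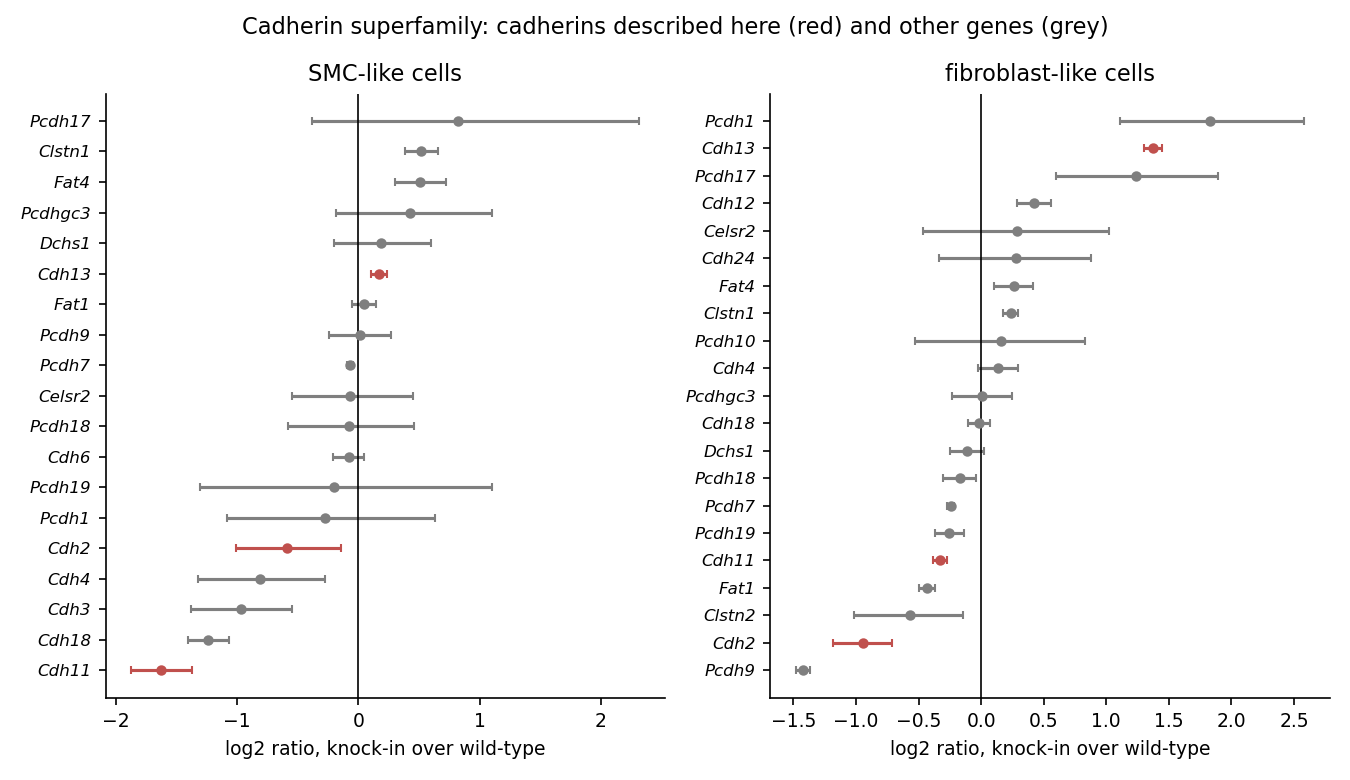
Log2 ratios (knock-in over wild-type) with exact 95% counting intervals for cadherin superfamily genes with at least 50 UMIs in SMC-like (left) and fibroblast-like (right) cells; red marks Cdh2, Cdh11 and Cdh13, grey the other genes, and the line is 0. Cdh11 is lowest in SMC-like cells at -1.63, next to Cdh18 at -1.24, while in fibroblast-like cells Pcdh9 is lowest at -1.42 and Cdh13 stands high at 1.37.

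Catenins and adaptors are the partners of cadherins inside the cell. Of 11 measured catenins and adaptors in SMC-like cells 0 were higher and 1, Plekha7, was lower by 1.5-fold, with a median log2 ratio of 0.04, against 8.26% of all genes higher and 6.95% lower. Ctnnb1 (beta-catenin) stood at 262 CPM in knock-in and 220 CPM in wild-type SMC-like cells, Ctnna3 (alpha-T-catenin) at 688 and 729 CPM, and Vcl (vinculin) at 596 and 581 CPM. In fibroblast-like cells 1 of 12, Ctnna2, was higher, at 1.72 and 1.07 CPM, and 0 were lower. In endothelial-like cells 0 of 7 passed in either direction. The shares over all genes were 7.44% higher and 7.5% lower in fibroblast-like, and 7.68% and 12.0% in endothelial-like cells.

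Proteases and phosphatases that act on cadherins included 2 genes that were lower in both mesenchymal classes. Mmp14, a membrane-bound metalloprotease, stood at 44.3 CPM in knock-in and 77.2 CPM in wild-type SMC-like cells, a log2 ratio of -0.80, and at 108 and 184 CPM in fibroblast-like cells, a ratio of -0.77. Adam19 stood at 13.4 and 28.4 CPM in SMC-like cells, a ratio of -1.09, and at 14.2 and 24.9 CPM in fibroblast-like cells, a ratio of -0.82. They were the 2 of 12 measured genes past 1.5-fold in SMC-like and the 2 of 14 in fibroblast-like cells. Of all genes, 6.95% were that much lower in SMC-like and 7.5% in fibroblast-like cells. In endothelial-like cells 3 of 12 were higher and 0 lower, against 7.68% and 12.0% of all genes. Ptprb, the phosphatase that associates with VE-cadherin, stood there at 2689 CPM in knock-in and 2022 CPM in wild-type cells, a ratio of 0.41.

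The adiponectin receptors Adipor1 and Adipor2 share a ligand with Cdh13. Of a list of these receptors, adiponectin itself (Adipoq) and Appl1, 3 genes were measured and 0 passed 1.5-fold in SMC-like, fibroblast-like or endothelial-like cells. Over all genes the shares were 8.26% higher and 6.95% lower, 7.44% and 7.5%, and 7.68% and 12.0%, in that order of classes. Adipor2 was the lowest, at 31.5 CPM in knock-in and 45.6 CPM in wild-type SMC-like cells, a log2 ratio of -0.53, and 41.6 and 61.6 CPM in fibroblast-like cells, a ratio of -0.56. Adipor1 stood at 80.7 and 73.8 CPM in SMC-like cells.

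Beside the counts that follow, 8.26% of all genes were higher and 6.95% lower by 1.5-fold in SMC-like cells. The shares were 7.44% and 7.5% in fibroblast-like cells, and 7.68% and 12.0% in endothelial-like cells. Among endothelial junction and identity genes, SMC-like cells had 1 of 10 measured genes higher, Fli1 at 11.1 CPM in knock-in and 6.21 CPM in wild-type cells, and 2 lower, Plvap and Jam2. Fibroblast-like cells had 2 of 13 higher, Pecam1 at 26.2 and 12.3 CPM and Plvap at 70.7 and 46.6 CPM, and 2 lower, Tek at 6.33 and 14.9 CPM and Kdr at 0.645 and 1.55 CPM. In endothelial-like cells, where all 22 were measured, 2 were higher, Tie1 and Tjp1, and 1 was lower, Kdr, at 20.8 CPM in knock-in and 57.0 CPM in wild-type cells. Genes of mesenchymal transition, some of which repress epithelial and endothelial cadherins, had 1 of 9 past 1.5-fold in SMC-like cells, Twist2 at 3.94 CPM in knock-in and 9.05 CPM in wild-type cells, and 0 of 10 in fibroblast-like cells. In endothelial-like cells Tcf4 was higher, with a log2 ratio of 0.89, and Twist1 lower, with -0.93, among 6 measured. Gap junction genes of vascular muscle had 0 of 3 past 1.5-fold in SMC-like cells, with Gja1 (connexin 43) at 149.98 CPM in knock-in and 124 CPM in wild-type cells.

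The genes most alike in pattern were named for each cadherin over 20 points, each a cluster of at least 20 cells in 1 library, by Pearson's r of log2(CPM + 10) among 10801 genes. Points of 1 library share its depth and its free RNA, so the values describe these points. Cdh5 was closest to Cldn5 (claudin 5) at r = 0.997, followed by Stmn2, Vwf, Egfl7 and Podxl at 0.993 or more. It was high only in the endothelial-like point of each library, so these values rest on those points. Cdh13 was closest to Cav1 (caveolin 1) at 0.967, followed by Clu, Cavin1, Lims2 and Atp8b1, down to 0.927. Cdh11 was closest to Gpr153 at 0.969, followed by Matn2, C1qtnf7, Twist2 and Mfap2, down to 0.946. Cdh2 had no gene above 0.869, reached by Cggbp1, followed by Srd5a1, Ssx2ip, Smc6 and Tmem53.

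**Figure D5:**
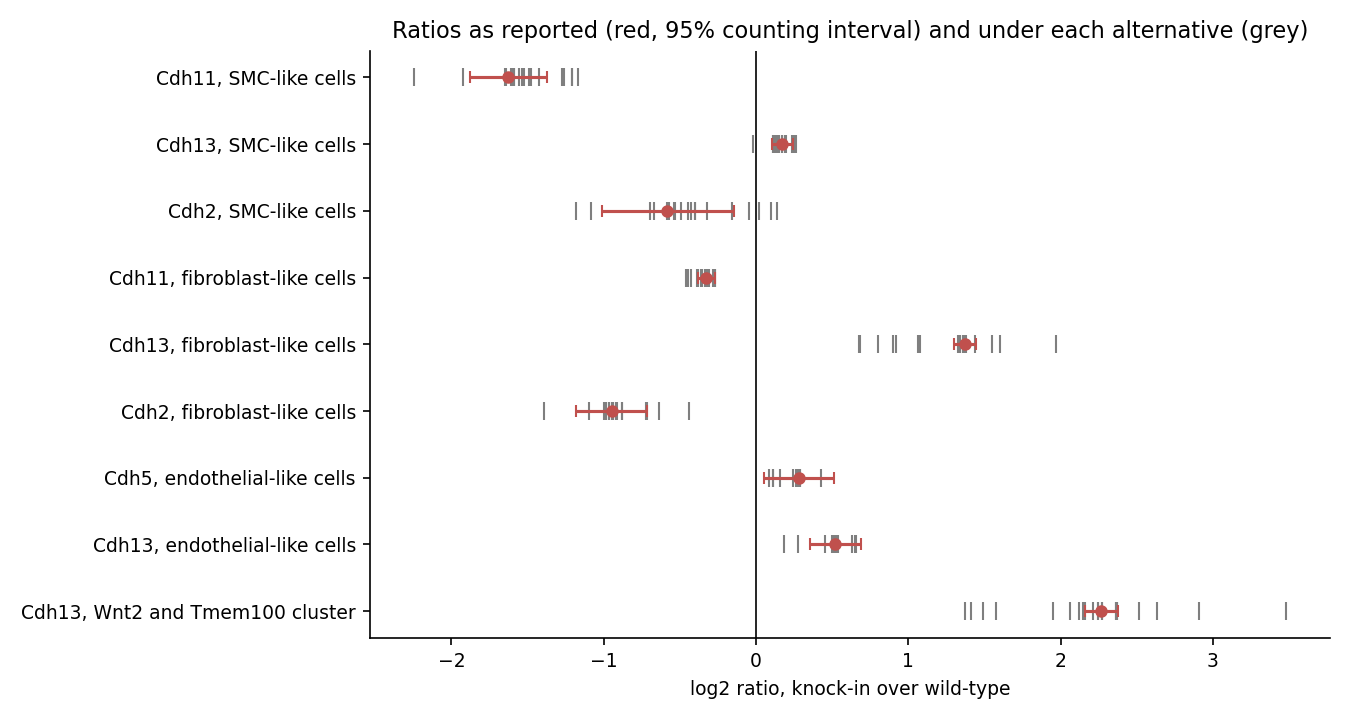
Log2 ratios (knock-in over wild-type) of 9 results: red points are the values reported with their 95% counting intervals, and grey ticks the values under each alternative processing; the line is 0. Cdh11 stays below 0 in SMC-like and fibroblast-like cells and Cdh13 above 0 in fibroblast-like cells under each alternative run, while Cdh2 and Cdh13 in SMC-like cells cross 0.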

How the data were processed

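The deposited values are raw UMI counts. Per the file headers, and per the submitters' processing notes, the authors ran Cell Ranger 7.1.0, and the counts cover all barcodes, 1421297 in the knock-in and 1307634 in the wild-type library (85831737 and 79626104 UMIs). The sources used here give neither the genome build nor whether intronic reads were counted. The 4 cadherins, the gene and marker lists and the naming rule for clusters were chosen with earlier results of these data known.

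Cells had at least 1000 UMIs, 500 genes and at most 10% mitochondrial UMIs. Scrublet in scanpy 1.11.5 scored doublets, and the top 0.8% per 1000 cells were removed, 330 knock-in and 109 wild-type cells; its automatic threshold would have called 120 and 4. Both libraries were clustered together (counts per 10000, log, 2000 variable genes without the 4 cadherins, Mgp, mitochondrial, ribosomal, hemoglobin and sex-linked genes, 30 components, 15 neighbours, Leiden resolution 0.5, igraph 0.11.9). Clusters were named from 22 marker lists by mean log2 gain, and left unnamed where a second list passed 0.65 of the best score or fewer than 3 markers were detected. Fibroblast-like cells were clustered again at resolution 1.0.

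UMIs were summed per library and class. With 1 library per genotype no p-value is given. Levels carry exact Poisson, shares Clopper-Pearson and log2 ratios exact conditional binomial intervals at 95% (scipy 1.17.1). Intervals were tried on simulated Poisson counts drawn from the summed counts of SMC-like cells. Such counts follow the model of the intervals, so the simulation could not show how clumping of UMIs in single cells affects them. Free RNA per class was estimated from the C1q genes against barcodes under 100 UMIs. Cells were thinned to 5000 UMIs where shares are compared, which left out shallower cells. Genes other than the 4 were named by rule: the 2 to 4 members of each of 8 lists with most UMIs or the largest ratio among those with at least 50 UMIs in a class, and the 5 genes most alike in pattern among those with at least 500 UMIs. Genes that lead clusters and cell type markers are named to identify cells.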

Additional observations from a re-analysis of the deposited data

How the results depend on the processing

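Of the 9 ratios, those of Cdh11 in SMC-like and fibroblast-like cells, Cdh13 in fibroblast-like and endothelial-like cells and in the Wnt2 cluster, and Cdh2 in fibroblast-like cells kept their direction under each alternative run, as did Cdh5 in endothelial-like cells, which stayed between 0.08 and 0.43. The Cdh5 interval held 0 after thinning, at 8000 to 20000 UMIs, without doublet removal, at 5% mitochondrial UMIs and in female cells. In SMC-like cells Cdh11 was -2.25 with at least 2000 UMIs per cell, where the class took in mesothelial-like cells, and -1.21 without those, -1.17 without doublet removal, -1.26 at resolution 1.0, -1.21 with the 4 cadherins and Mgp among the variable genes, -1.93 in male cells and -1.27 at 8000 to 20000 UMIs. Cdh13 in SMC-like cells was 0.26 at 5% mitochondrial UMIs and 0.25 in male cells, and turned to -0.019 in cells of low fibroblast marker share. Cdh2 in SMC-like cells turned to 0.021 at 8000 to 20000 UMIs, 0.14 after thinning and 0.10 where a posterior Hox gene was detected, and was -1.18 where none was, -1.08 in male and -0.046 in female cells.

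In fibroblast-like cells Cdh11 was -0.43 after thinning, -0.27 in male cells, -0.46 in female cells, -0.27 in the largest cluster, -0.39 without a posterior Hox UMI and -0.45 with clusters weighted equally. Cdh13 there was 0.92 as a mean over cells, 0.90 at 8000 to 20000 UMIs, 1.06 after thinning, 1.97 in male and 0.80 in female cells, 0.68 in the largest cluster, 1.55 with and 1.08 without a posterior Hox UMI, 1.60 with clusters weighted equally and 0.68 without the Wnt2 cluster. Cdh2 there was -0.44 at 8000 to 20000 UMIs, -0.64 in female cells and -1.39 with a posterior Hox UMI. In endothelial-like cells Cdh13 was 0.28 without doublet removal and 0.18 in female cells.

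In the Wnt2 cluster Cdh13 was 2.12 as a mean over cells, 2.16 after thinning, 2.91 in male and 1.58 in female cells, 1.95 in cells of low SMC marker share, and 2.06 with and 2.63 without a posterior Hox UMI. Other clusterings cut these cells differently. The cluster that held most of them gave 2.15 at resolution 1.0 (478 knock-in and 728 wild-type cells), 1.37 without doublet removal (853 and 1147) and 3.48 with the libraries clustered separately (474 and 372). The cluster with the highest Tmem100 level, which was another one (in the wild-type library alone where the libraries were clustered separately), gave 1.49 (46 and 121 cells), 2.51 (145 and 175) and 1.41 (474 and 271) under these settings. For 3.48 the wild-type cluster was led by Penk, Dkk2 and Bmper, and for 1.41 it had Aldh1a3 and Wnt2 among its leading genes. The knock-in cluster was led by Wnt2 both times, so 3.48 may not compare like cells. With a minimum of 10 UMIs per gene, 2083 genes were at least 1.5-fold higher and 1701 lower in SMC-like cells (1020 and 858 at 50 UMIs), 2097 and 1886 in fibroblast-like cells (1047 and 1056), and 1439 and 1742 in endothelial-like cells (354 and 552), where more genes of low counts enter. The other causes were not tested. Equal weights, leaving out the Wnt2 cluster or the SMC-like cells of highest fibroblast marker share, leaving out mesothelial-like or highest cells, and the reclusterings and low SMC marker share of the Wnt2 cluster were chosen after seeing the data. No paired analysis was possible because each genotype has 1 library. Depth limits Cdh2, with 57 UMIs in wild-type SMC-like cells.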
